A study of Mus musculus with 24 samples.

Results

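H3K27ac peaks of female myofibers were compared between day 6 and day 8 after the last of a series of weekly prednisone injections. The members were all autosomal peaks of the peak list of females at day 6 (121551 peaks) and of the list of females at day 8 (80538 peaks), which make 202089 of the 469078 peaks in the 8 lists of the study. A day 6 peak was kept if it overlapped a day 8 peak by at least 1 bp and lost otherwise, and a day 8 peak with no day 6 overlap was gained. Both groups were female C57BL/6 mice (C57BL/6J in the methods), 10 weeks old at the start, that received 1 mg/kg prednisone i.p. once a week for 4 weeks (5 injections, with vehicle on the days between), and the myofibers of the quadriceps were freed with collagenase II and filtered either 6 or 8 days after the last injection. Each group had 2 H3K27ac libraries and 1 input library, but a single peak list was deposited per group, so no difference below has a replicate error or a test. Wilson 95% confidence intervals are given for percentages and cover counting error only.

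Acetylation of lysine 27 on histone H3 (H3K27ac) is deposited by the coactivators p300 and CBP on nucleosomes next to active promoters and enhancers, and it is removed by histone deacetylases. In skeletal muscle it is found over the promoters and long enhancer domains of contractile and metabolic genes. Prednisone acts through the glucocorticoid receptor, a nuclear receptor that binds DNA and recruits such coactivators, and is a drug of short persistence in the body.

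The depth of the lists was 30.6 M H3K27ac tags against 33.1 M input tags at day 6 and 39.7 M against 23.8 M at day 8. The share of H3K27ac tags that fell in peaks was 47.3% at day 6 and 25.9% at day 8. The lowest findPeaks Score (the tag number by which HOMER ranks a peak) was 11 at day 6 and 16 at day 8. Regions of low Score thus had to pass different limits. Not all of them were weak by tags, as the day 6 domain at the Akt2 promoter had a Score of 11 and 1281 normalized tags. The part of depth, tag share and Score limits in the differences described here was not tested.

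To show which DNA lay under the peaks of each fate, the 200 bases at the center of the highest-scoring peaks with few repeat bases are given, up to 2 per fate, from GRCm38.p6 (mm10), plus strand. Capitals mark matches to a glucocorticoid receptor element (ACANNNTGT), a MyoD E-box (CAGCTG), an AP-1 site (TGANTCA) or the MEF2 consensus, each of which reads the same on both strands.
Center of a lost peak nearest Tbx21, chr11:97127291-97127490: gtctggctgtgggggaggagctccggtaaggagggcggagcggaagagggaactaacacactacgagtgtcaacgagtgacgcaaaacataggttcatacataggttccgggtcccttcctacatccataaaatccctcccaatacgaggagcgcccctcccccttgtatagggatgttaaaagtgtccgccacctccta
Center of a lost peak nearest Chmp4b, chr2:154674139-154674338: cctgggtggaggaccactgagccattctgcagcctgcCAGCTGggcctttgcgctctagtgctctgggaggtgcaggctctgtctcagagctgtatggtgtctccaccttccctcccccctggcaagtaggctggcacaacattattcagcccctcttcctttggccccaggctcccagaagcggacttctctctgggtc
Center of a gained peak nearest Sfi1, chr11:3196481-3196680: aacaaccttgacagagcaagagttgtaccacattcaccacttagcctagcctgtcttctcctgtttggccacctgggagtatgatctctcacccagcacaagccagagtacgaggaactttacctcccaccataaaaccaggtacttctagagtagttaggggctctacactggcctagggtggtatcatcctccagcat
Center of a gained peak nearest Gm4981, chr10:58232112-58232311: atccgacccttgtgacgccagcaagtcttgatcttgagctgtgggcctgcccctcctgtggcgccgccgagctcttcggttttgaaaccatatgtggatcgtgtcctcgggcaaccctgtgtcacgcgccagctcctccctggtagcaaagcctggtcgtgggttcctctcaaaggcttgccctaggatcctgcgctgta
Center of a kept peak nearest Gnai3, chr3:108146165-108146364: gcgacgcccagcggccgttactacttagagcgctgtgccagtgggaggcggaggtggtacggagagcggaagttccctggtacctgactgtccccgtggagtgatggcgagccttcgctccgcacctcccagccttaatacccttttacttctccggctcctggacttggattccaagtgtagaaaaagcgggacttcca
Center of a kept peak nearest Il6st, chr13:112464226-112464425: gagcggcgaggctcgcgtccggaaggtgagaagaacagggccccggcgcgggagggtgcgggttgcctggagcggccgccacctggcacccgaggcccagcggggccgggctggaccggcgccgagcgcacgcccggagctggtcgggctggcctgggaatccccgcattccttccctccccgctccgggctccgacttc
Center of a divided peak nearest Plpp5, chr8:25721501-25721700: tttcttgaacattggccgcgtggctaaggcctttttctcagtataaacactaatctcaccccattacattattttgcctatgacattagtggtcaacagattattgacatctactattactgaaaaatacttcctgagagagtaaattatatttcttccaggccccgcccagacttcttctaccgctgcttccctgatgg
Center of a divided peak nearest Agbl5, chr5:30889030-30889229: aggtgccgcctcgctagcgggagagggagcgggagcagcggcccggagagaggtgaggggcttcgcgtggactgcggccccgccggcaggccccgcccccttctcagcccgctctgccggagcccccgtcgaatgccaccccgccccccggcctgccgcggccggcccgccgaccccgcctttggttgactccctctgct

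The lost peak nearest Tbx21, a T-box transcription factor of lymphocytes, was intergenic at 12.1 kb from the start and had a Score of 42. The lost peak nearest Chmp4b, a subunit of the ESCRT-III membrane remodeling complex, was intronic with a Score of 37, and it held the single motif match among these windows, an E-box. The kept windows lay at the starts of Gnai3, an inhibitory G protein subunit, and Il6st, the gp130 coreceptor of interleukin-6 cytokines, and had Scores of 256 and 237 with folds over input of 61.3 and 70.8. The gained windows nearest Sfi1, a centrosomal protein, and Gm4981 had Scores of 167 and 60 but folds of only 2.55 and 2.08, close to the limit of 2 at which peaks were taken. The divided peaks nearest Plpp5, a lipid phosphatase, and Agbl5, a tubulin deglutamylase, each overlapped 2 day 8 peaks.

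Of the day 6 peaks, 70291 were lost by day 8 (57.8%, 95% CI 57.6–58.1), and of the day 8 peaks, 26424 were gained (32.8%, 95% CI 32.5–33.1). The kept peaks carried most of the signal, with 82.7% of the normalized tags in peaks at day 6 and 90.4% at day 8. A lost peak was typically small, with a median width of 500 bp, the smallest width in the list, and 9.14 normalized tags per 10 M against 30.7 for a kept day 6 peak. A gained peak was of the same kind, with a median width of 500 bp and 7.30 normalized tags against 16.4 for a kept day 8 peak. The acetylated regions of both days shared 76.8 Mb, which was 48.8% of the bases covered at day 6 and 70.8% of those covered at day 8.

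When both lists were cut to 80538 peaks by Score, 47.6% of day 6 peaks were lost (95% CI 47.3–47.9) and 43.9% of day 8 peaks were gained (95% CI 43.6–44.3). At this cut the day 6 Score limit was 12, at which 21739 peaks were tied and 7678 of these, those with most normalized tags, were taken. With a Score of at least 16 asked of both lists, an alternative chosen after seeing the data, the order turned, with 31.2% lost and 68.9% gained.

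**Figure D1:**
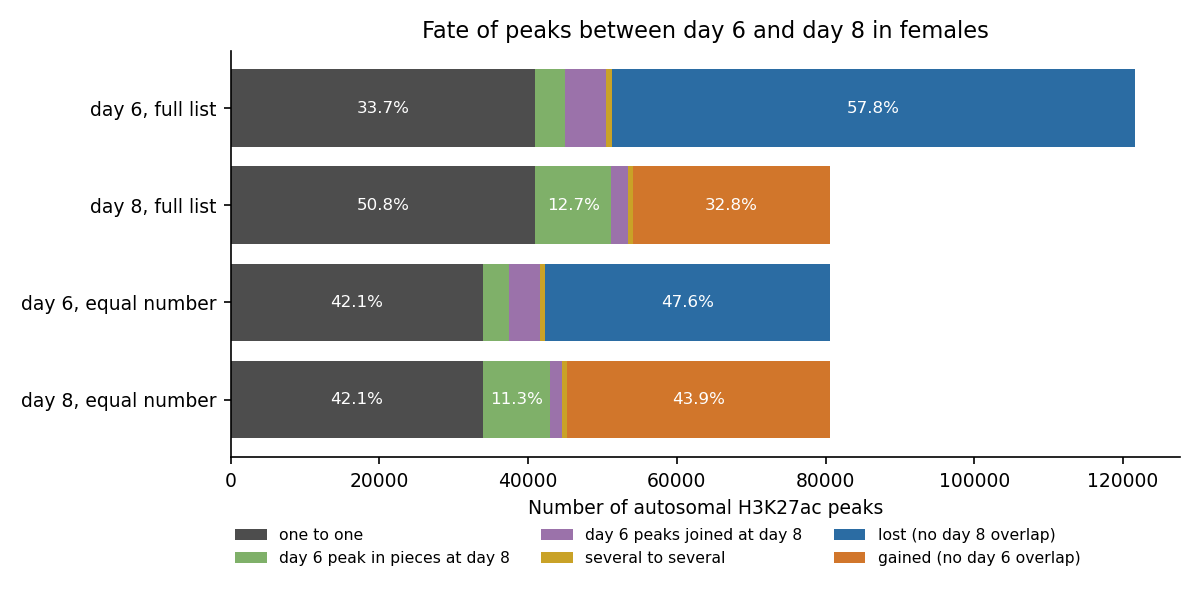
Number of autosomal peaks by fate for day 6 and day 8, in the full lists (upper bars) and with both lists cut to 80538 peaks by Score (lower bars). Of day 6 peaks 57.8% were lost in the full lists and 47.6% at equal number, and the gained share rose from 32.8% to 43.9%.

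The kept share rose with normalized tags and width. Tags are summed over a peak, so they grow with width, and a wider peak meets the 1 bp overlap more readily. By Score the sets were closer, with medians of 15 for kept and 12 for lost day 6 peaks. At day 8 the medians were 18 for kept and 17 for gained peaks. With the peaks of each day put in 10 equal bins by normalized tags, 13.1% of day 6 peaks were kept in the lowest bin and 99.9% in the highest. At day 8 the kept share went from 35.6% in the lowest bin to 99.6% in the highest. Peaks of the smallest width (500 bp) were kept at 16.1% of day 6 and 40.5% of day 8 peaks, whereas the widest class was kept at 99.3% and 99.5%. Peaks listed at a single day were thus mainly narrow and low in tags. By chromosome the lost share ran from 54.2% on chromosome 19 to 60.9% on chromosome 5, and the gained share from 27.6% on chromosome 11 to 41.0% on chromosome 13.

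The lost and the gained peaks differed in base composition. GC content at the center of the peak averaged 52.4% in lost peaks and 48.8% in gained peaks, beside 53.2% in kept peaks of either day and 41.9% in 239580 windows taken every 10 kb of the autosomes. Among peaks of 500 bp the averages were 52.3% for lost and 49.0% for gained peaks. Of day 6 peaks with a GC of 50% to 55% at the center 64.2% were lost, and of those with 35% to 40% 39.3% were lost, but the lowest lost share, 35.4%, was at 60% and above. For day 8 the gained share was highest at a GC of 40% to 45% (49.8%) and fell to 7.81% at 60% and above. Between 40% and 55% GC the kept share thus fell with GC for day 6 peaks, from 52.7% to 35.8%, and rose for day 8 peaks, from 50.2% to 68.1%. The part of GC in the differences between the lists was not tested.

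**Figure D2:**
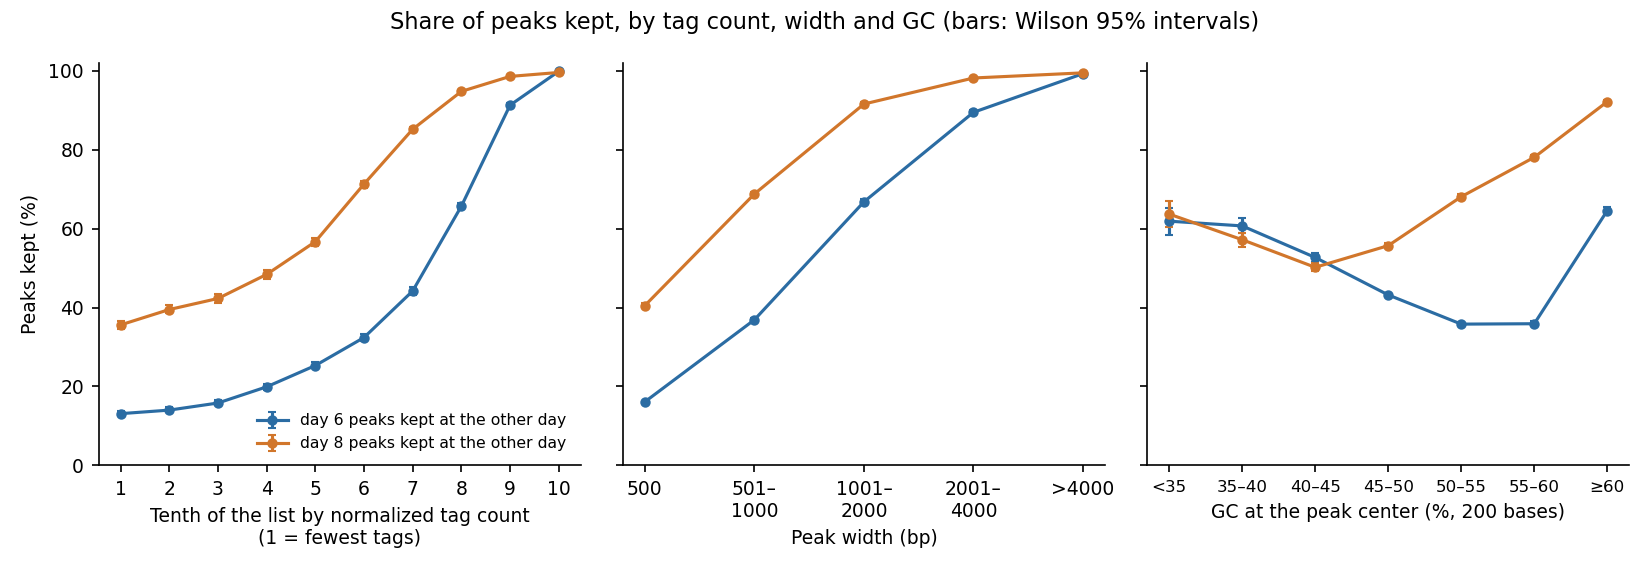
Percentage of day 6 (blue) and day 8 (orange) peaks kept at the other day, by bin (1 to 10) of normalized tag count, by width in bp and by GC of the 200 central bases, with Wilson 95% intervals. The kept share rose from 13.1% to 99.9% (day 6) and from 35.6% to 99.6% (day 8) with tag count, and above a GC of 45% day 8 peaks were kept more often than day 6 peaks.

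Motif letters at the peak centers were compared between the fates. The MEF2 consensus, bound by the MEF2 factors that drive muscle genes, stood in 0.462% of kept day 6 windows (95% CI 0.407–0.525) but 0.151% of lost windows (95% CI 0.125–0.182). In gained windows its share was 0.405% (95% CI 0.335–0.489), beside 0.423% of the genome windows. The MyoD E-box was held by 16.6% of lost, 15.2% of kept day 6 and 14% of gained windows, against 7.52% of genome windows. The glucocorticoid receptor element was found in 5.62% of lost, 5.45% of kept and 6.60% of gained windows and in 6.53% of genome windows, and the AP-1 site in 5.56%, 5.83% and 6.37% against 6.00%. Among peaks of 500 bp the order of kept and lost turned for the E-box (18.3% of kept and 16.8% of lost day 6 windows) and for the glucocorticoid receptor element (6.37% and 5.61%), as it did not for MEF2 (0.331% and 0.127%). Base composition, which bears on how often such letters occur, differed between the sets as described, and its part was not tested.

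Among the genomic classes, promoters (the start of a transcript with the 1 kb upstream and 100 bp downstream of it) had the highest kept share. Promoters held 10.4% of kept day 6 peaks (95% CI 10.1–10.7) but 1.80% of lost peaks (95% CI 1.70–1.90) and 1.23% of gained peaks (95% CI 1.11–1.37). Read the other way, 19.2% of promoter peaks of day 6 were lost, whereas 56.6% of intronic and 68.5% of intergenic peaks were lost. Intergenic peaks made 34.2% of lost and 34.3% of gained peaks against 21.6% of kept day 6 peaks. At equal number the promoter shares were 11.4% of kept, 1.98% of lost and 2.36% of gained peaks.

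**Figure D3:**
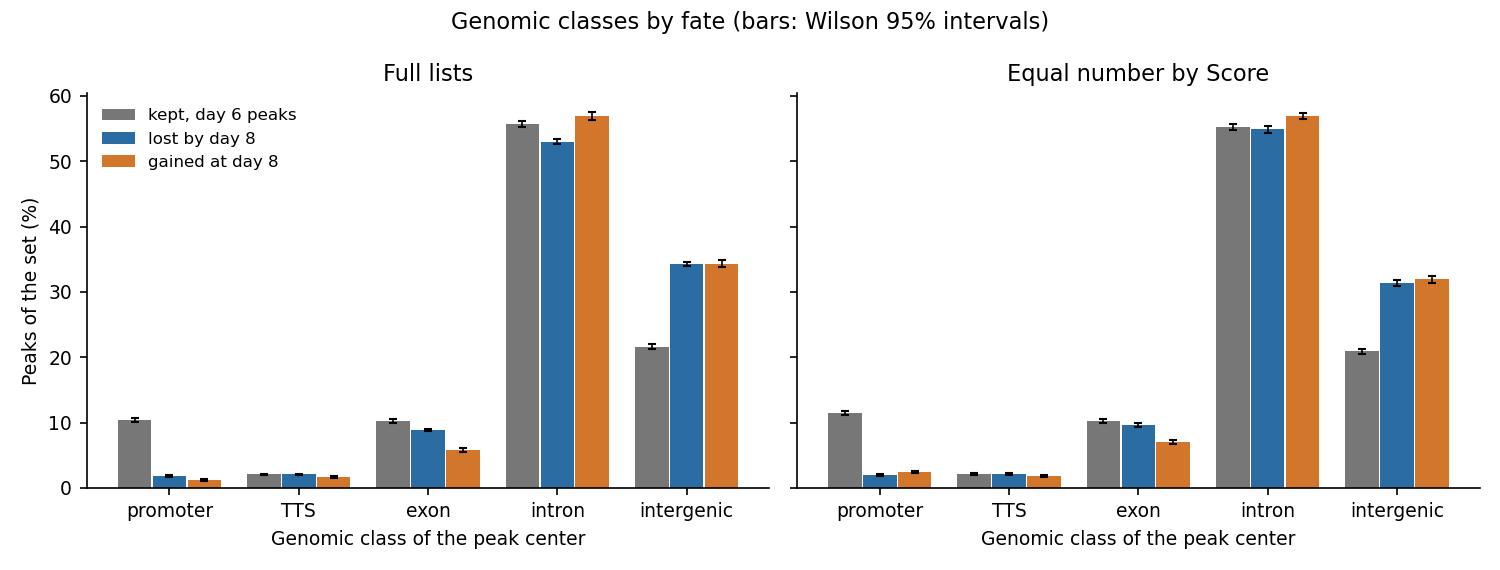
Percentage of kept day 6 peaks (grey), lost peaks (blue) and gained peaks (orange) in each genomic class of the peak center, for the full lists and at equal number, with Wilson 95% intervals. Promoters hold 10.4% of kept peaks but 1.80% of lost and 1.23% of gained peaks, and intergenic peaks are 34.2% and 34.3% of the lost and gained ones.

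The lost and gained peaks were seldom present in the other female lists. Of the lost peaks 7.74% overlapped a peak of females at day 4 and 1.34% a peak of vehicle-treated females, beside 55.2% and 23.1% of the kept day 6 peaks. Of the gained peaks 12.0% and 4.16% did so. Followed from day 4, 47.4% of the 66251 day 4 peaks were found at both later days, 10.7% at day 6 alone and 5.65% at day 8 alone. The same step in males had 75.9% of 31982 day 6 peaks lost and 61.8% of 20355 day 8 peaks gained, and 65.6% and 65.2% at equal number.

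Among 20021 autosomal protein-coding genes, 11839 had a promoter peak at both days, 1766 at day 6 only (8.82%) and 326 at day 8 only (1.63%). At equal number the counts were 1187 at day 6 only (5.93%) and 1338 at day 8 only (6.68%). The larger count thus changed from day 6 to day 8. Of these 1338 genes, 1012 had a promoter peak at both days in the full lists, so the cut had removed their day 6 peaks. In the full lists promoters marked at a single day were weak. Their strongest peak had a median of 13.1 normalized tags for day 6 only genes and 8.19 for day 8 only genes, against 121 and 67.5 for the genes marked at both days. Of the day 6 only genes 9.34% had a promoter peak at day 4 and 1.36% in vehicle-treated females. Of the genes marked at both days 84.9% and 41.4% did so.

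Of 27 genes of the contractile apparatus, 21 had a promoter peak at both days, 3 at day 6 only and none at day 8 only. The shares over all genes were 59.1%, 8.82% and 1.63%. The 3 at day 6 only were Neb (nebulin, the ruler of the thin filament), Tnnt1 and Tnni1 (the troponin T and I of slow fibers). The Neb promoter had a peak of 1951 bp with 26.8 normalized tags at day 6, and at day 8 a peak of 500 bp with 5.54 tags overlapped it but missed the promoter window. The Tnnt1 promoter had a peak of 761 bp with 15.3 normalized tags at day 6, and the nearest day 8 peak was 0.625 kb away. The Tnni1 promoter had a peak of 1723 bp with 24.8 tags at day 6 and its nearest day 8 peak lay 3.87 kb away. The day 6 peaks of Neb, Tnnt1 and Tnni1 had Scores of 13, 13 and 12, below the lowest Score of the day 8 list (16). Their folds over input were 3.55, 7.27 and 3.74. At equal number the list turned from 3 at day 6 only and 0 at day 8 only to 3 and 5. These 5 genes had promoter peaks at both days in the full lists. Of the peaks nearest to the 27 genes 30.9% were lost (72 of 233) and 35.7% were gained (71 of 199), beside 57.8% and 32.8% of all peaks. At equal number the shares were 22.9% and 51.8%, beside 47.6% and 43.9%. Tpm1, which encodes a tropomyosin, had most of them, with 20 of 55 day 6 peaks lost and 12 of 39 day 8 peaks gained, and at Ttn, which encodes titin, 7 of 38 were lost and 14 of 41 gained.

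The contractile promoters marked at both days were in many cases covered by wider peaks at day 8. Promoter peaks were summed per gene. A gene was counted as wider where the width at day 8 was at least 1.5 times that at day 6. It was counted as narrower where the width was at most 2/3. Only peaks that met a promoter window were summed. A day 6 domain divided at day 8 could therefore count as narrower where its other pieces missed the window. Of all 11839 genes with promoter peaks at both days 10% were wider and 21.9% narrower at day 8, with a median ratio of 0.969. Of the 21 contractile genes 11 were wider (52.4%) and 1 was narrower, with a median ratio of 1.51. At equal number 8 of 16 were wider and 0 narrower, beside 10.9% and 20.4% of all genes. Tcap, the 1 narrower gene of the full lists, was not counted there, because the cut removed its day 6 promoter peak. These widths were examined, and the genes named from them chosen, after values of the lists were seen.

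Myh4, the myosin heavy chain of the fastest fibers, had the greatest ratio of the gene lists, from a peak of 756 bp with 23.5 normalized tags at day 6 to a domain of 18736 bp with 340.0 tags at day 8. At Myl1, the fast alkali light chain, the summed promoter width went from 625 bp to 6707 bp. Acta1, the actin of adult skeletal muscle, went from 6874 bp to 15352 bp, while its normalized tags were 463.7 and 457.3. Des, which encodes desmin, went from 6875 bp to 14075 bp, and Tpm1 from 8063 bp to 17583 bp. Tcap, which encodes the titin cap protein telethonin, was the narrower gene, from 15491 bp to 8625 bp. Tnnc2, the fast troponin C, was wider, with a ratio of 1.51. Several other genes of fast fibers in the list had ratios below 1. These were Actn3 (0.682), Myh2 (0.693), Tnni2 (0.758), Mylpf (0.801), Tnnt3 (0.823) and Mybpc2 (0.883). The fast-fiber genes thus did not move one way. Normalized tags are scaled within a list and do not compare acetylation levels between the days.

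Width change also moved with GC. The genes were put in 5 equal bins by GC over the span from the first to the last base of their promoter peaks of both days. This span took in the bases between separate peaks. It also grew with the peaks, so the bins were not independent of the width change. In the lowest bin (35.4% to 50.1%) 26.5% were wider and 13.7% narrower, and in the highest bin 2.62% were wider and 21% narrower. Of the 21 contractile genes 9 were in the lowest bin, where 7 were wider, 4 in the next bin, where 3 were wider against 11.7% of all genes, and 6 in the middle bin, where 1 was wider against 5.87%. Myh4 and Myl1 were both in the lowest bin. The part of GC in the width of this list was not tested.

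**Figure D4:**
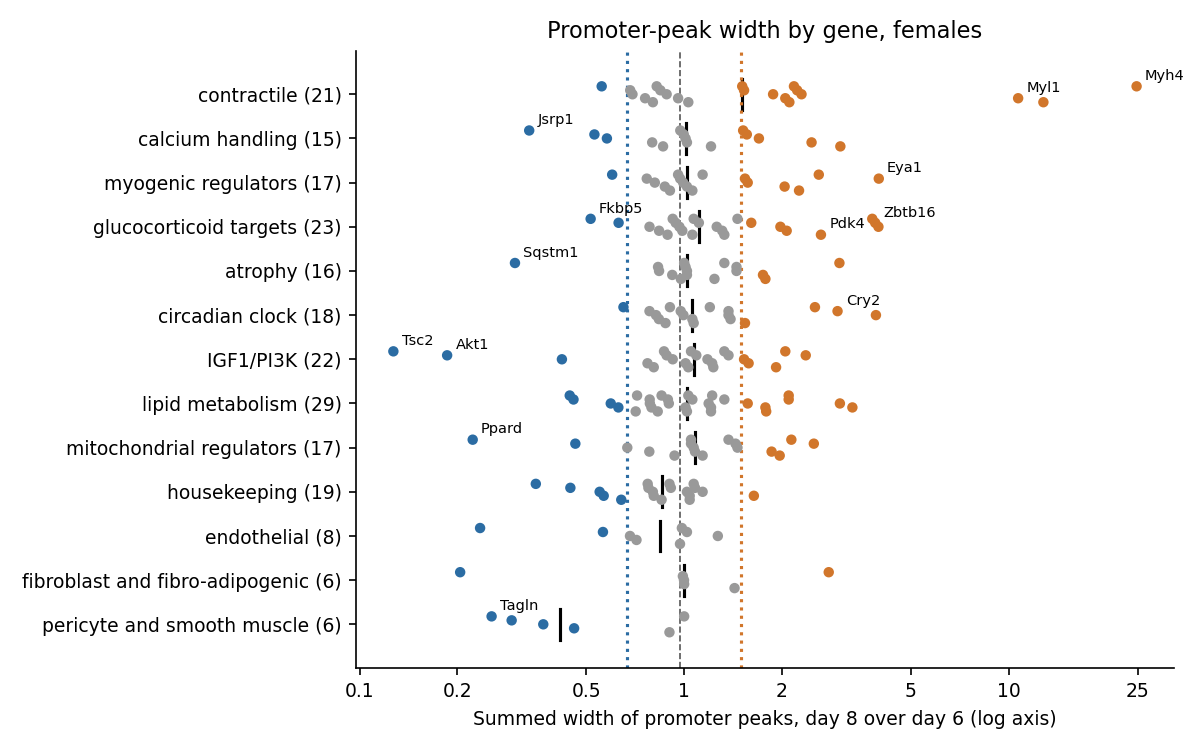
Ratio of the summed promoter-peak width at day 8 over day 6 (log axis) for each gene of the lists with promoter peaks at both days, with the number of genes in parentheses. Orange points are at least 1.5 and blue points at most 2/3, black ticks are list medians and the dashed line is the median of all genes (0.969). Contractile genes have a median of 1.51 and pericyte and smooth muscle markers one of 0.413.

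To show promoters of the 3 outcomes, the 250 bases before the RefSeq start are given on the strand of the gene (GRCm38.p6), with capitals for the same motifs.
Tnnt1 (day 6 only), chr7:4515976-4516225, minus strand: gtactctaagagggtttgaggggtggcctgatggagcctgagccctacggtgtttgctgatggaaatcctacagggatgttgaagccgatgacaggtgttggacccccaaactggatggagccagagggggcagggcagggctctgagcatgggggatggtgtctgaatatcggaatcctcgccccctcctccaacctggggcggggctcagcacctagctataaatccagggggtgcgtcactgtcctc
Mstn (day 8 only), chr1:53061390-53061639, plus strand: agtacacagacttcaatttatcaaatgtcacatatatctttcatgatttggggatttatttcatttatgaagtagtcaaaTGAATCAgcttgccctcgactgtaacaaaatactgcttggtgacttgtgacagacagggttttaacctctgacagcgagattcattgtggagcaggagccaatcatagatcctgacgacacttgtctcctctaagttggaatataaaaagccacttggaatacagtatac
Myh4 (wider at day 8), chr11:67237562-67237811, plus strand: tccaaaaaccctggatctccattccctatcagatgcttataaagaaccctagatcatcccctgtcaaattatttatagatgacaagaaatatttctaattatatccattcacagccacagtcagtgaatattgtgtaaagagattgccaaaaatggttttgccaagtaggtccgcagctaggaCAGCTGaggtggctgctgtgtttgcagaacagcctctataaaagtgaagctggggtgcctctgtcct

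Day 6 peaks covered 109 of the 250 bases at Tnnt1 and 0 at Mstn and Myh4. Day 8 peaks covered 0 bases at Tnnt1, 116 at Mstn and all 250 at Myh4. The E-box of Myh4 is a motif held by 11.8% of 16007 such promoters, and the AP-1 site of Mstn by 6.33%. Of the promoters marked at day 6 only 15.8% held the E-box (95% CI 13.9–17.8), of those marked at day 8 only 10.1% (95% CI 6.92–14.5) and of those marked at both days 11.9% (95% CI 11.3–12.6).

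Of 17 genes of muscle atrophy, 16 had a promoter peak at both days and 1, Mstn, at day 8 only. The shares over all genes were 59.1% and 1.63%. Mstn encodes myostatin, which limits muscle mass. Its day 8 peak was 2790 bp wide with 64.7 normalized tags and a fold over input of 22.0, and it overlapped a 500 bp peak of day 6 with 11.1 tags that did not reach the promoter. The promoter was marked at day 4 in females and not in vehicle-treated females. Of all 20021 genes 10407 had a promoter peak at day 4 and only 5013 in vehicle-treated females. Of the 16 genes marked at both days 3 were wider and 1 narrower, beside 10% and 21.9% of all genes. The wider genes were Nedd4, a ubiquitin ligase (6976 bp to 21031 bp), Trim55, the ubiquitin ligase MuRF2 (1856 bp to 3308 bp), and Ctsl, the lysosomal protease cathepsin L (1661 bp to 2914 bp). Sqstm1, the autophagy adaptor p62, was narrower, from 13896 bp to 4177 bp. The ubiquitin ligases Trim63 (MuRF1), with 13678 bp and 13886 bp, and Fbxo32 (atrogin-1), with 5744 bp and 5614 bp, were neither. Nearest to the atrophy genes 38.5% of day 6 peaks were lost and 32.4% of day 8 peaks were gained, beside 57.8% and 32.8% of all peaks. Foxo1, a forkhead factor that induces atrophy genes, had most, with 29 of 45 lost and 20 of 37 gained.

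Of 24 known glucocorticoid receptor targets 23 had a promoter peak at both days, beside 59.1% of all genes, and none at a single day. Tat, a liver enzyme of tyrosine breakdown, had no promoter peak. In the list 7 of 23 were wider at day 8 (30.4%, beside 10% of all genes) and 2 narrower (8.70%, beside 21.9%), and 6 of the 7 were in the lowest GC bin. Zbtb16 (PLZF), a zinc finger factor induced by glucocorticoids, went from 7303 bp to 28343 bp, with 427.5 and 1115 normalized tags. Pdk4, the kinase that turns off pyruvate dehydrogenase, went from 2335 bp to 6176 bp with 194.6 and 169.0 tags, and Glul, glutamine synthetase, from 3061 bp to 12161 bp with 338.0 and 350.3 tags. Fkbp5, a cochaperone of the receptor, was narrower, from 3432 bp to 1768 bp with 60.7 and 30.7 tags. The list thus held both wider and narrower genes. Of their nearest day 6 peaks 40% were lost, beside 57.8% of all, and 27.2% of day 8 peaks were gained, beside 32.8%, with many near Foxo1, Foxo3 (22 of 42 lost, 9 of 31 gained) and Sgk1, a kinase of ion transport (21 of 39 lost, 7 of 23 gained).

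Of the 17 myogenic regulators, all had a promoter peak at both days, beside 59.1% of all genes. Myod1, the founding member of the muscle bHLH factors, kept a domain of 8787 bp at day 6 and 8965 bp at day 8. Mef2c was among the 10 genes with most gained peaks, with 25 of 39 day 8 peaks gained and 10 of 24 day 6 peaks lost. Maf, a bZIP factor linked to fast fiber identity, had 33 of 64 day 6 peaks lost and 16 of 43 day 8 peaks gained, and Tead1, a Hippo pathway factor, 14 of 45 and 9 of 38. In this list 6 of 17 genes were wider at day 8 (35.3%, beside 10% of all genes) and 1 narrower (5.88%, beside 21.9%). Of their nearest peaks 43.3% were lost and 34.6% gained, beside 57.8% and 32.8% of all.

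Of 18 genes of calcium handling 15 had a promoter peak at both days and 2 at day 6 only. The shares over all genes were 59.1% and 8.82%. Casq2, the calsequestrin of heart and slow fibers, had a peak of 1967 bp with 24.8 normalized tags at day 6, and its nearest day 8 peak was 1.34 kb away. Cacna1h, a T-type calcium channel subunit, had a peak of 2136 bp with 38.9 tags at day 6. A 500 bp day 8 peak with 6.30 tags overlapped it but missed the promoter window. The day 6 peak of Casq2 had a Score of 13, below the lowest day 8 Score of 16, and a fold of 4.11. That of Cacna1h had a Score of 20 and a fold of 6.44. Ryr1, the calcium release channel, was wider, from 5303 bp to 13090 bp, and Jsrp1, a junctional reticulum protein, narrower, from 24605 bp to 8186 bp. Of the day 6 peaks nearest to these genes 41.4% were lost, beside 57.8% of all, with Cacng1 (16 of 23) and Atp2a2, the calcium pump of slow fibers and heart (11 of 14), among those with many, and 23.9% of day 8 peaks were gained, beside 32.8% of all, with Jph1, a junctophilin (12 of 31), and Trdn, triadin (10 of 17), having most.

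Of 19 clock genes 18 had a promoter peak at both days and Hlf, a PAR bZIP factor of the clock output, at day 8 only. The shares over all genes were 59.1% and 1.63%. The Hlf peak was 500 bp wide with 7.30 normalized tags, 0.546 kb from the start, and a day 6 peak of 763 bp with 23.5 tags lay 0.737 kb away. Nearest to the clock genes 45.6% of day 6 peaks were lost and 30.3% of day 8 peaks were gained, beside 57.8% and 32.8% of all peaks. Rora, a nuclear receptor that activates Arntl, had most changed peaks of the list, with 49 of 117 lost and 36 of 99 gained. Of the 18 clock genes marked at both days 4 were wider (22.2%) and 1 narrower (5.56%), beside 10% and 21.9% of all genes. Cry2, a repressor of the clock, went from a summed width of 4724 bp to 14029 bp. Per1, which is also a receptor target, was covered by domains of 24927 bp and 19496 bp.

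The genes of IGF1/PI3K signaling (22 of 22) had promoter peaks at both days, beside 59.1% of all genes. Irs2, an adaptor of the insulin and IGF1 receptors, had 32 of 59 nearest day 6 peaks lost and 10 of 35 day 8 peaks gained, and Irs1 7 of 19 lost and 15 of 27 gained. Akt1 and Tsc2 were narrower, from 20305 bp to 3774 bp and from 20619 bp to 2620 bp. The Akt1 domain was divided at day 8, and of the 5 day 8 peaks nearest Akt1 0 were gained. In this list 5 genes were wider (22.7%) and 3 narrower (13.6%), beside 10% and 21.9% of all genes. Of 31 lipid genes 29 were marked at both days and 2 at neither, 7 were wider (24.1%) and 4 narrower (13.8%). At Cd36, the fatty acid transporter, the strongest promoter peaks of day 6 (862 bp) and day 8 (1796 bp) did not overlap, and 12 of its 14 nearest day 8 peaks were gained. All 17 mitochondrial regulators were marked at both days, 4 were wider (23.5%) and 2 narrower (11.8%). At Ppargc1a (PGC-1α), the coactivator of mitochondrial biogenesis, the promoter width went from 2070 bp to 4431 bp and 11 of 18 nearest day 8 peaks were gained. At Ppard the promoter width went the other way, from 31331 bp to 6980 bp. Of 19 housekeeping genes on autosomes all were marked at both days, 1 was wider (5.26%) and 5 narrower (26.3%). In these lists the lost share was 45.3% for IGF1/PI3K, 39.1% for lipid, 47.6% for mitochondrial and 36.0% for housekeeping genes, and the gained share 33.3%, 31.8%, 30.3% and 20.9%. All 10 gene lists, the housekeeping genes included, thus had a lost share below the 57.8% of all day 6 peaks.

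The labelled cell type was checked with marker genes. Of 8 myofiber markers 7 had promoter peaks at both days, the exception being Myh1 with none at either day. All 8 endothelial markers, 6 of 8 fibroblast markers and 6 of 8 pericyte and smooth muscle markers also had promoter peaks at both days, beside 59.1% of all genes. So did 3 of 8 satellite cell markers, 4 of 8 Schwann cell markers and 2 of 8 adipocyte markers. Of the immune markers 2 of 8 were marked at both days and Ptprc (CD45) at neither. Liver and neuron markers, from outside the tissue, had 1 of 8 each at both days.

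Markers of other cells also differed between the lists. Of 6 pericyte and smooth muscle markers with promoter peaks at both days 4 were narrower and 0 wider, with a median ratio of 0.413 (1 wider at equal number), and Tagln, a smooth muscle actin-binding protein, went from 7659 bp to 1952 bp. Notch3 and Cnn1, further markers of these cells, had a promoter peak at day 6 only. Among endothelial markers 2 of 8 (25%) were narrower and 0 wider, beside 21.9% and 10% of all genes. Of the day 6 peaks nearest to neuron markers 87.3% were lost (48 of 55), beside 57.8% of all day 6 peaks. The lost share was 70.6% for Schwann cell, 66.7% for liver, 65.4% for immune and 65.2% for satellite cell markers, 56.3% for fibroblast, 53.6% for adipocyte and 52.9% for endothelial markers, 38.6% for pericyte and smooth muscle markers and 24.5% for myofiber markers. The pericyte and smooth muscle markers thus had narrower summed promoter peaks but fewer nearest peaks lost than the background. At Cspg4, also among the narrower genes (11170 bp to 5121 bp), the day 6 domain was divided at day 8. Pieces that missed the promoter window were not summed. Sox10 of Schwann cells, Fgfr4 of satellite cells, Gad2, Rbfox3 and Neurog2 of neurons and Apoa1 of liver were marked at day 6 only. Pax7 and Vcam1 of satellite cells, Col3a1 of fibroblasts, Plin1 and Cfd of adipocytes and Mag of Schwann cells were marked at day 8 only. Over all genes the shares were 8.82% and 1.63%. The Fgfr4 and Col3a1 peaks were among the smallest of their lists, with 4.57 and 4.28 normalized tags. At equal number Fgfr4 and Neurog2 had no promoter peak at either day. The day 6 peaks of Sox10 (6486 bp) and Notch3 (3815 bp) were overlapped by day 8 peaks of 500 bp and 959 bp that missed the promoter window. Fewer nuclei of a cell type and less acetylation per nucleus cannot be told apart in such bulk chromatin, and the part of cell mixture in the changes at muscle genes was not tested.

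The genes nearest to most lost peaks were Ajap1, an adherens junction associated protein (67 of 72 day 6 peaks), Med13l of the Mediator kinase module (65 of 124), Sulf2, a heparan sulfate sulfatase (64 of 86), Gm13090 (63 of 74), Nphp4 of the ciliary transition zone (60 of 66), Foxp1, a forkhead repressor (59 of 91), Igsf21 (59 of 65), Tle3, a Groucho corepressor (59 of 73), Agap1 (56 of 82) and Cryba4, a lens crystallin (55 of 69). Of these genes Ajap1, Gm13090, Nphp4 and Igsf21 are on chromosome 4. The genes nearest to most gained peaks were Rbfox1, a splicing factor of muscle and brain (37 of 57 day 8 peaks), Rora (36 of 99), Kcnma1, the BK potassium channel (34 of 69), Rab3c (33 of 65), Sox6, a repressor of slow fiber genes (30 of 60), Ptprg (29 of 70), Foxp1 (28 of 61), Lpp (26 of 63), Mef2c (25 of 39) and Tbc1d22a (25 of 43). At equal number the lost counts were lower and their order changed, with 42 at Sulf2, 37 at Med13l and Agap1 and 32 at Ajap1, and Med13l then had 36 gained peaks. At equal number Rbfox1 had 39 gained and 9 lost peaks, and Sox6 37 gained and 11 lost. Foxp1 was high in both rankings, with 34 lost and 31 gained peaks at equal number. Both rankings are by count, which grows with the number of peaks nearest to a gene. In the full lists the lost shares of the first ranking ran from 52.4% (Med13l) to 93.1% (Ajap1), beside 57.8% of all day 6 peaks. The gained shares of the second ran from 36.4% (Rora) to 64.9% (Rbfox1), beside 32.8% of all day 8 peaks. The genes of both rankings ran from 1.88 kb (Gm13090) to 1528 kb (Rbfox1) in length.

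The lost peaks of highest Score were weak beside the kept ones. The highest, with a Score of 72, was an intergenic 500 bp peak 56.0 kb from Cd200 with a fold over input of 2.28, followed by peaks nearest Vmn1r77 (54), Rps6kc1 (46), Xpo1, the nuclear export receptor (44), and Il6st (44). Among gained peaks the 3 at Sfi1 had Scores of 189, 167 and 119 with folds of 2.33 to 2.55, and the peak 1195 kb from Lrrc4c had 22178 normalized tags and 6145 input tags. These 4 peaks had 67.0 to 6145 input tags, against a median of 2.00 for gained peaks. The kept peaks of highest Score were the neighboring stretch of chromosome 2 with 173698 normalized tags, a stretch 168 kb from Gm2237 with 5906 input tags, and the starts of Gnai3, Il6st and Zfp143, a zinc finger activator (Score 229).

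Of the 51260 kept day 6 peaks, 40917 were in matched pairs, in which a day 6 and a day 8 peak overlapped only each other. Day 8 peaks were narrower (at most 2/3 of the day 6 width) in 27.5% of the pairs (95% CI 27%–27.9%) and wider (at least 1.5 times) in 11.8% (95% CI 11.5–12.2), with a median ratio of 0.951. At equal number the shares were 27.1% and 12.6%. In promoter pairs the median ratio was 1.00 and in intronic and intergenic pairs 0.938. Among pairs in the upper part of both lists by Score, the strongest narrowing was nearest Plxnb1, a semaphorin receptor (6839 bp to 500 bp). It was followed by peaks nearest Notch4, a Notch receptor of endothelium (11095 bp to 883 bp), and Pld6 (5406 bp to 500 bp). Next were those nearest 4930404N11Rik (5343 bp to 500 bp) and Krt42 (5229 bp to 500 bp). The centers of these peaks lay 1.29 kb to 45.4 kb from the nearest protein-coding start. That of the peak nearest Plxnb1 was in the promoter window of another transcript. The strongest widening was nearest Lnpep, the aminopeptidase of GLUT4 vesicles (500 bp to 4759 bp), and Clec2d (500 bp to 4534 bp). Next were peaks nearest Klhl31, a Kelch protein of muscle (500 bp to 4107 bp), and Nkiras1 (629 bp to 5003 bp). The last was nearest B3galnt2, which glycosylates dystroglycan (779 bp to 5843 bp). The widened peaks lay 14.2 kb to 37.8 kb from the nearest protein-coding start.

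A division, in which a day 6 peak overlapped several day 8 peaks, took in 4779 kept day 6 peaks (9.32%, 95% CI 9.07–9.58), and 2937 kept day 8 peaks joined several day 6 peaks (5.43%, 95% CI 5.24–5.62). Of 3934 day 6 domains of at least 5 kb 58.6% overlapped more than 1 day 8 peak, whereas 36.4% of 2689 such day 8 domains overlapped more than 1 day 6 peak.

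The most divided was the domain in Niban2 (chr2:32873703-32913148), where 13 day 8 peaks of 500 bp to 8297 bp covered 60.4% of its 39445 bp. The domain nearest Rflna (52968 bp) was met by 10 day 8 peaks, that of Pitpnm2, a phosphatidylinositol transfer protein, by 9, that of Rxra, the partner receptor of many nuclear receptors, by 8, and that of Arl6ip4 by 8. In Rxra the 8 peaks still covered 85.3% of the domain, so gaps took up the rest. The greatest joining was at Mroh2a (8 day 6 peaks in 37765 bp), with a fold over input of 3.26, below that of the others. It was followed by Rbfox1 (7 peaks in 24078 bp), Rbm24, a splicing regulator of muscle (7 peaks in 18382 bp), Srl, the calcium-binding sarcalumenin (6 peaks in 29368 bp), and Ybx3 (6 peaks in 19183 bp). At Rbfox1 the 7 day 6 peaks covered 69.8% of the day 8 domain and at Srl 6 peaks covered 88.6%.

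**Figure D5:**
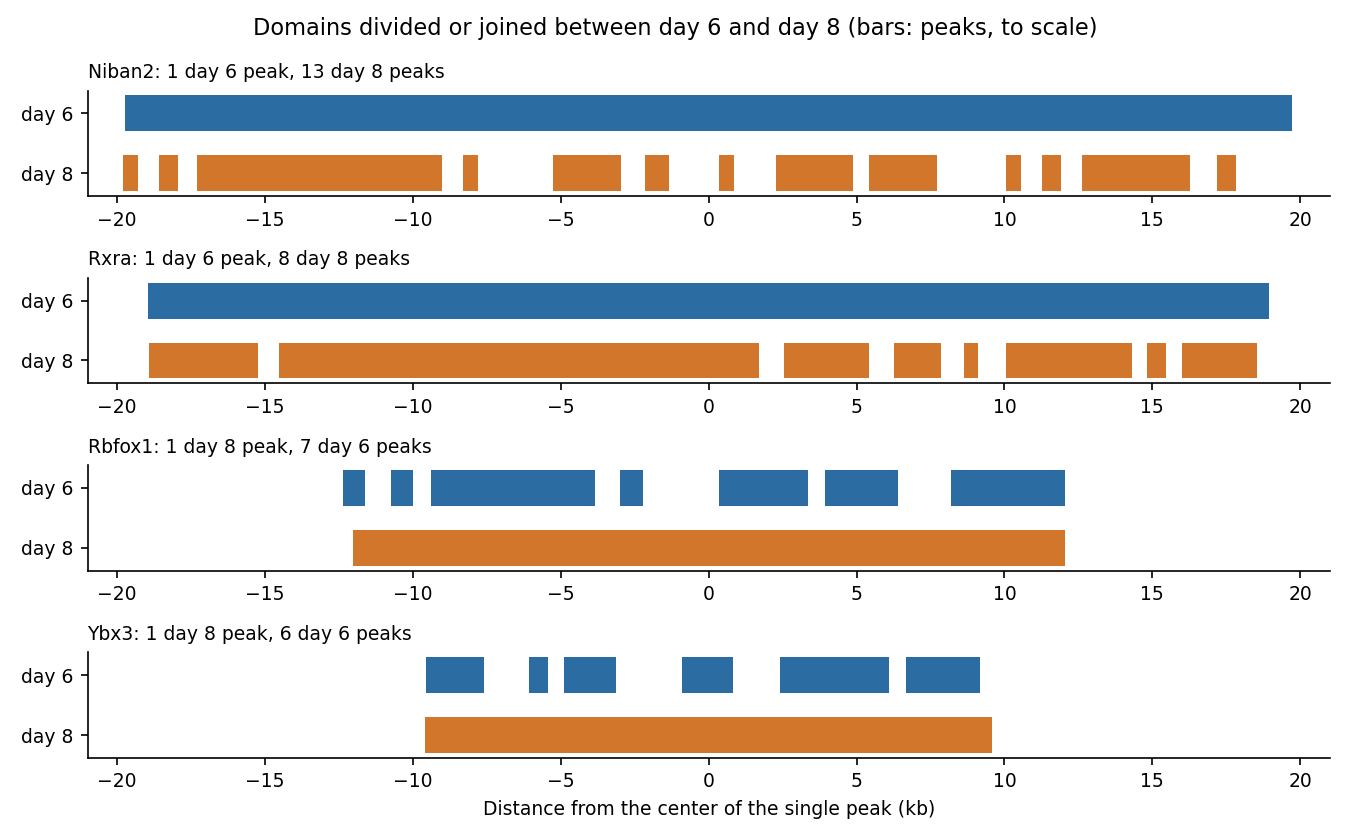
Peaks of day 6 (blue) and day 8 (orange) drawn to scale by distance in kb from the center of the single peak, for the divided domains of Niban2 (13 day 8 peaks) and Rxra (8) and the joined domains of Rbfox1 (7 day 6 peaks) and Ybx3 (6). The pieces cover 60.4% of the Niban2 domain and 69.8% of the Rbfox1 domain.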

How the data were processed

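The authors aligned reads to mm10 with Bowtie2 2.2.6 (TopHat2 2.1.0 is also listed in the submitters' processing notes) and took peaks with HOMER findPeaks in histone style against input, at a fold over input of at least 2. The way in which both H3K27ac libraries of a group entered its list is not given in the sources used here. The deposited normalized tag count is a signal scaled by the authors to 10 M tags, the deposited findPeaks score ranks peaks within a list, and the deposited ratio of H3K27ac to input tags is the fold. The deposited p-values against input were not used. Depths were computed from the deposited tag columns: the ratio of total to normalized tags gives the depth of the smaller library, and the smallest step between values gives what 1 tag of the scaled library is worth.

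Peaks of autosomes were overlapped by 1 bp or more. Classes and nearest genes were taken at the peak center from 45756 RefSeq transcripts of GRCm38.p6 (20021 autosomal protein-coding genes), and a gene had a promoter peak where a peak met the window from 1 kb before to 100 bp after a start. Overlaps were checked on simulated lists and against bedtools 2.31.1 (9 of 9 checks equal), with Python 3.11.15, numpy 2.4.6 and pandas 2.3.3. For equal number, ties in Score were broken by normalized tags. The gene lists and the comparison itself were chosen with earlier results of these data known. Named were list members with a promoter peak at 1 day only, up to 4 per list with most lost or gained nearest peaks, the genes of the 10 highest counts, the 5 highest-scoring peaks of each fate, the 5 domains most divided or joined and the 5 pairs most narrowed or widened. Other members were named after their values were seen, and genes of chromosomes 18, X and Y were not named. Some list members are not reported here by name. Alternatives were the top 20000 peaks by Score, equal number by Score or fold, a fold of at least 4, overlap of 50%, joining within 1 kb, other promoter windows and width limits, and all chromosomes. No test was possible with 1 list per group.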

Additional observations from a re-analysis of the deposited data

Results flagged for a closer look

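The number of genes with a promoter peak fell by 1440 from day 6 to day 8 in females (13605 to 12165) and rose by 796 in males (5785 to 6581). The opposite direction of the sexes is what drew attention, and the difference was not tested, since each group has a single list. With the lists of each sex cut to equal number the count of genes rose in both, from 12014 to 12165 in females and from 5275 to 6581 in males.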

How the results depend on the processing

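No paired analysis was possible because the deposited lists are per group and hold no values per replicate, and for the same reason no replicate could be left out. Of 65 alternative values 12 stayed within the interval of the main value or within 1.5 times a count. The lost share (57.8%) was 47.6% at equal number by Score, 58.3% for the top 20000, 49.9% at equal number by fold, 68.2% with 50% of the peak covered, 57.2% with peaks within 1 kb joined, 52.7% at a fold of at least 4 and 31.2% at a Score of at least 16. In the same order the gained share (32.8%) was 43.9%, 58.3%, 45.8%, 41.6%, 33.0% (joined), 43.3% and 68.9%. The promoter share of kept day 6 peaks was 11.4%, 23.2%, 12.7%, 12.6%, 10.9% and 12.7%, and 20.1% with promoters of 1 kb on either side. That of lost peaks was 1.98%, 9.60%, 1.96%, 2.11%, 1.82% (joined) and 1.99%, and 3.68% with the wider promoter. That of gained peaks was 2.36%, 9.85%, 1.52%, 1.51%, 1.21% (joined) and 1.54%, and 2.38% with the wider promoter. Promoters were thus a larger share of kept than of lost or gained peaks under every alternative run. Genes marked at day 8 only (326) numbered 1338 at equal number by Score, 2626 for the top 20000, 630 at equal number by fold, 555 at a fold of at least 4 and 4453 at a Score of at least 16, where those at day 6 only (1766) numbered 1187, 2485, 1213, 1363 and 409. Which day had more genes of its own therefore depended on the cut. Divided day 6 peaks (9.32%) were 9.96% at equal number by Score, 3.72% for the top 20000, 10.5% at equal number by fold, 10% with peaks joined and 9.98% at a fold of at least 4, and joining day 8 peaks (5.43%) were 4.87%, 3.59%, 4.62%, 4.02% and 4.84%. Pairs narrower at day 8 (27.5%) were 16.8% for the top 20000, 24.8% at equal number by fold, 31.4% with peaks joined, 25.3% at a fold of at least 4 and 16.2% at a ratio of 0.5 or less. The cause of these shifts was not tested. Depth and the lowest Score differed between the lists, and their part was not tested.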
